A study of Mus musculus with 8 samples.

Results

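Chemokine ligands are small secreted proteins that direct the migration of leukocytes, and 10 of their genes, 6 of the CC type (Ccl2, Ccl6, Ccl7, Ccl8, Ccl9 and Ccl11) and 4 of the CXC type (Cxcl1, Cxcl12, Cxcl13 and Cxcl14), were followed in brown adipose tissue (BAT) of lean and of obese diabetic mice. They were taken from a given list of symbols, matched by Ensembl identifier, and all 10 were found among the 31053 genes of the count table. BAT from 4 wild-type (WT) and 4 db/db mice of 8 weeks was profiled by bulk RNA-seq, with C57BL6/J given as the strain of every sample. The db/db line lacks the signalling form of Lepr, the receptor for the satiety hormone leptin, and is a widely used model of obesity with diabetes. According to the methods of the study the mice were fasted males, and the WT mice came from Charles River and the db/db mice (B6.BKS(D)-Leprdb/J) from Jackson laboratories, whereas its list of resources names Jackson for C57BL/6J mice as well. If the suppliers differed, genotype and supplier cannot be told apart.

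Chemokines act on G protein-coupled receptors of leukocytes and stromal cells, and the spacing of their first cysteines gives the CC and CXC families their names. Ccl2 and Ccl7 recruit monocytes through Ccr2, whereas Ccl6 and Ccl9 are made mainly by myeloid cells and bind Ccr1. Ccl11 is the eosinophil attractant eotaxin, Cxcl1 attracts neutrophils through Cxcr2, Cxcl13 attracts B cells through Cxcr5, and Cxcl12 is the broadly expressed stromal ligand of Cxcr4 and Ackr3. Cxcl14 is known in this tissue as a factor released by brown adipocytes upon thermogenic activation. In obese white fat, Ccl2 is a classical signal for the recruitment of monocytes that become adipose macrophages.

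The 4 WT libraries held 2374079 to 2615009 counts each and the 4 db/db libraries 2382722 to 3240074. Lepr itself had 0 counts in all 8 libraries, which leaves the genotype labels unchecked. Values are given as raw counts or as CPM (counts per 1000000), scaled over the genes that passed a filter on low counts. A floor of 3 counts corresponded to 0.902 to 1.33 CPM. The labels name both BAT and the stromal vascular fraction as the source of the libraries. The 6 brown adipocyte markers summed to 9526 to 11378 CPM in WT and to 6047 to 8214 CPM in db/db, so transcripts of adipocytes, which that fraction lacks, were abundant in every library. The 12 skeletal muscle markers summed to 421.7 to 1527 CPM in WT and to 1954 to 9961 CPM in db/db, with the highest level in db/db replicate 1.

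The CC ligand genes lie together. All 6 are on chromosome 11 (GENCODE M21, mm10), 4 of them (Ccl2, Ccl7, Ccl11 and Ccl8, all on the plus strand) between 82035571 and 82116799, and the other 2 (Ccl9 and Ccl6, both on the minus strand) between 83572919 and 83593087. Only 9.245 kb separate the end of Ccl9 from Ccl6. The CXC genes are scattered, with Cxcl1 (90891241 to 90893115) and Cxcl13 (95956951 to 95961068) on chromosome 5, Cxcl12 (117168535 to 117181367) on chromosome 6 and Cxcl14 (56288643 to 56296551) on chromosome 13. No exon of the 10 genes overlaps an exon of another annotated gene, and 0 of the 75-base windows of their transcripts occur in a transcript of another gene, so the counts of these paralogs could be kept apart at the read length used.

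RefSeq promoter windows of 300 bases (250 before the start to 50 after it, GRCm38.p6) were on hand for 7 of the 10 genes. The windows of Ccl6 and Ccl9 are shown because these neighbouring genes moved together in the counts. Of all pairs of the 7 windows, theirs had the highest local alignment score, with 58 of 74 aligned columns identical (78.4%), over positions -59 to 15 of Ccl6 and -18 to 49 of Ccl9 counted from the annotated start. The capitals mark this aligned stretch. The Ccl6 window is chr11:83593038-83593337 and the Ccl9 window chr11:83578587-83578886, both on the minus strand.

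Ccl6: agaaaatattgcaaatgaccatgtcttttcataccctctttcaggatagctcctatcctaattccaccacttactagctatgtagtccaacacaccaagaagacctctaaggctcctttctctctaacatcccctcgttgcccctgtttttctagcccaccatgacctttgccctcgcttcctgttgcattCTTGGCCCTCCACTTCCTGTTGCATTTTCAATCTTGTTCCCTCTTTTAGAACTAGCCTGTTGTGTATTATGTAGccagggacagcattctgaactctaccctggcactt

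Ccl9: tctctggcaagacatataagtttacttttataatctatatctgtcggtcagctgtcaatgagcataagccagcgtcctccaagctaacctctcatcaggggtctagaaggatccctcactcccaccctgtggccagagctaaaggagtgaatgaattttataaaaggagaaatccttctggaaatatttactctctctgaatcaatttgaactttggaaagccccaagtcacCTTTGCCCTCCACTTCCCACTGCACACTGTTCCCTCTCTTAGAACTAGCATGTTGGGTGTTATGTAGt

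The window of Ccl8 (chr11:82114935-82115234, plus strand) is shown as that of the third CC gene called, with its TATAAA match in capitals. That of Cxcl1 (chr5:90890995-90891294, plus strand) is shown for its pair of overlapping matches to the NF-kB consensus, in capitals. That of Cxcl14 (chr13:56296502-56296801, minus strand) is shown because this gene moved in the other direction, with its match to a repeat of TTTC after any 2 bases (read on the other strand), in capitals.

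Ccl8: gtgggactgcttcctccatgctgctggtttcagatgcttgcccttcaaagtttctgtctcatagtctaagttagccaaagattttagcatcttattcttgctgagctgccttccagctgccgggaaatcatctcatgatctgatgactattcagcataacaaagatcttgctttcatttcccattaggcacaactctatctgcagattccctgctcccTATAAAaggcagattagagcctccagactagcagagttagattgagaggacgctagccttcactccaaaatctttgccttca

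Cxcl1: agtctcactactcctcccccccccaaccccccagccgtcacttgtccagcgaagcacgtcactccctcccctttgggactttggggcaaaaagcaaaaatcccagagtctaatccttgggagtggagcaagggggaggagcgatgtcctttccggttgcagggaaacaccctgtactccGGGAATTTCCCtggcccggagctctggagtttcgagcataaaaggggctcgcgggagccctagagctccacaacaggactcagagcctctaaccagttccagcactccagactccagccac

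Cxcl14: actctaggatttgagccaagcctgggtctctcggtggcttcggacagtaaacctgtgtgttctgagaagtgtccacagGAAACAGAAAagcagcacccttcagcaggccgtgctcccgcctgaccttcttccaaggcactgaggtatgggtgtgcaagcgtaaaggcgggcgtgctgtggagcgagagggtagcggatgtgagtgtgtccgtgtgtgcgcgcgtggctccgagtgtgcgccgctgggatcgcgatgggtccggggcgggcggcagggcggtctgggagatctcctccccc

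Each of 4 motifs was searched on both strands. The NF-kB consensus was found in the windows of Cxcl1 (at -71 and -70) and Ccl9 (at -35), and in 4.51% of the 32851 mouse promoter windows of this length. TATAAA was found in Ccl8 (at -32), in Cxcl13 (at -46) and at 3 places in Ccl9, of which the pair at -94 and -92 overlaps on opposite strands, against 13.6% of all windows. TGANTCA was found in Ccl9 alone of the 7 (at -53), against 7.81% of all windows, and the TTTC repeat in Cxcl14 alone (at -172), against 3.44%. The windows of Ccl6 and Cxcl12 held none of these letters. GC content ran from 43.7% in Ccl9 to 64.7% in Cxcl12, with 62.7% in Cxcl14 and 45.3% in Ccl6. These matches describe the sequence only.

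To see how the ligands differ between the genotypes, the 9264 genes that passed the count filter were tested together with edgeR, and the rows of the ligands were read. Ccl6, Ccl8 and Ccl9 were higher and Cxcl14 was lower in db/db BAT, Cxcl12 did not pass, and Ccl2, Ccl7, Ccl11, Cxcl1 and Cxcl13 had too few counts for this fit. Of the 5 ligands tested, 4 therefore passed an adjusted p of 0.05, 3 higher and 1 lower, where 27.7% of all genes tested passed, 15.8% higher and 11.9% lower. Ccl8, with 3 to 9 counts in WT, passed the filter only through its db/db libraries. The median log2 fold change of the 5 was 2.33, against 0.01 over all genes tested. That median counts Ccl8, and the 5 values ran from -2.30 (Cxcl14) to 2.61 (Ccl8), so it depends on which ligands are included. The ligands were chosen with earlier results of these data known, so their contrasts with all genes are descriptive only. Over all 10, the libraries of the genotypes did not overlap for 5 ligands higher (Ccl2, Ccl6, Ccl7, Ccl8 and Ccl9) and 1 lower (Cxcl14), where 11.5% of all genes with a count were higher and 7.69% lower without overlap.

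**Figure D1:**
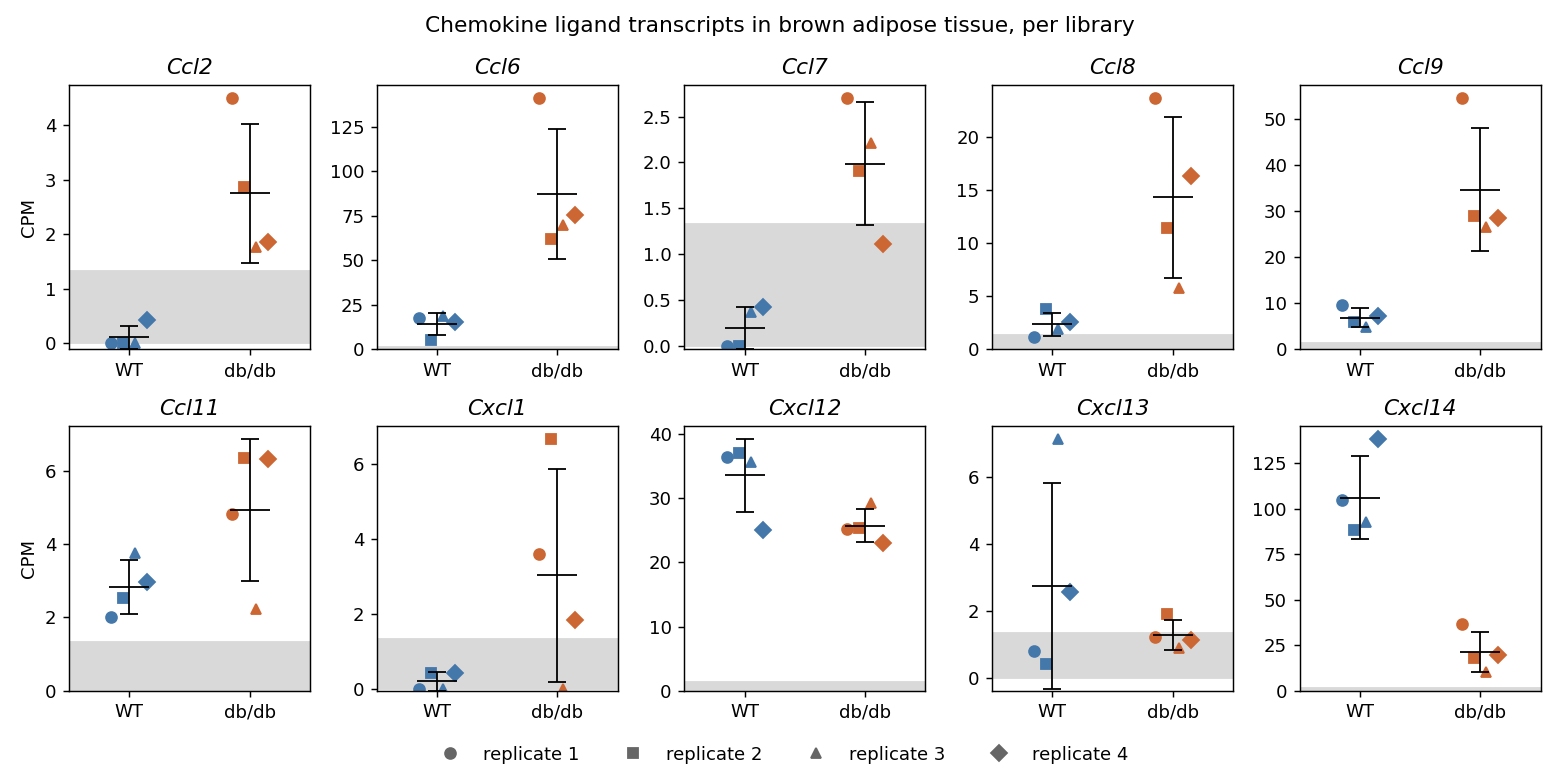
CPM of each ligand (y axis, linear, own scale per panel) in the 4 WT and 4 db/db libraries (points, one symbol per replicate number), with mean and SD (black) and the range under 3 counts in the shallowest library (gray). Ccl6, Ccl8 and Ccl9 lie higher in all 4 db/db libraries, Cxcl14 lies lower in all 4, and Ccl2, Ccl7 and Cxcl1 are in or near the gray range in WT.

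Ccl6 (ENSMUSG00000018927) encodes a myeloid chemokine that macrophages make in high amounts. Its levels were 17.8, 5.49, 18.8 and 15.3 CPM in the WT libraries, in replicate order, and 141.4, 62.0, 70.0 and 75.5 CPM in the db/db libraries. All db/db libraries lay above all WT libraries, and replicate 1 stood above the other db/db libraries. Ccl6 rose 6.06-fold (95% confidence interval of the log2 fold change 1.96 to 3.24, edgeR adjusted p 7.37e-06).

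Ccl9 (ENSMUSG00000019122), the adjacent gene, encodes a macrophage inflammatory protein. It measured 9.71, 5.91, 4.88 and 7.22 CPM in WT and 54.8, 29.0, 26.6 and 28.6 CPM in db/db. As for Ccl6, every db/db library was above every WT library and replicate 1 was the highest. Ccl9 rose 5.03-fold (log2 fold change 2.33, SE 0.29, edgeR adjusted p 1.28e-05).

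Ccl8 (ENSMUSG00000009185), a monocyte chemoattractant protein of the other chromosome 11 group, had 3, 9, 5 and 6 counts in WT and 79, 36, 13 and 44 counts in db/db. This corresponded to 1.21, 3.80, 1.88 and 2.55 CPM and to 23.8, 11.5, 5.76 and 16.4 CPM. The genotypes did not overlap, but the db/db libraries ranged over 4.12-fold, with replicate 1 the highest and replicate 3 the lowest. Ccl8 rose 6.11-fold (log2 fold change 2.61, SE 0.45, edgeR adjusted p 0.000301).

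Cxcl14 (ENSMUSG00000021508) was the one ligand that fell. It measured 104.8, 88.2, 92.8 and 138.4 CPM in WT and 36.4, 18.1, 10.2 and 19.3 CPM in db/db. All WT libraries lay above all db/db libraries, and db/db replicate 1 kept the most Cxcl14 while replicate 3 had the least. The fall was 4.94-fold (log2 fold change -2.30, SE 0.26, edgeR adjusted p 5.48e-06). Beside it, the thermogenic genes Ucp1 (log2 fold change -0.65, SE 0.19, edgeR adjusted p 0.0176), Cidea (-1.24, SE 0.17, adjusted p 4.19e-05) and Cox8b (-0.63, SE 0.16, adjusted p 0.00585) were lower. Plin1, which coats lipid droplets, was higher (0.79, SE 0.15, adjusted p 0.000685), and Adipoq did not pass (0.32, SE 0.14, adjusted p 0.112). Of the 6 brown adipocyte markers 5 were tested, 3 were lower and 1 higher (beside 11.9% and 15.8% of all genes tested), and none was at 0 in all libraries. Their part in the fall of Cxcl14 was not tested. In bulk tissue, fewer cells of a type and less RNA per cell cannot be told apart.

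Cxcl12 (ENSMUSG00000061353), which retains leukocytes and progenitors in stromal niches, measured 36.4, 37.1, 35.7 and 25.0 CPM in WT and 25.3, 25.5, 29.3 and 23.1 CPM in db/db. The genotypes overlapped through WT replicate 4, which was lower than 3 of the db/db libraries. The log2 fold change was -0.39 (SE 0.18, 95% confidence interval -0.77 to -0.00154) with an edgeR adjusted p of 0.127 and an unadjusted p of 0.0492. A fall by as much as 0.77 on the log2 scale therefore lies within the interval.

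**Figure D2:**
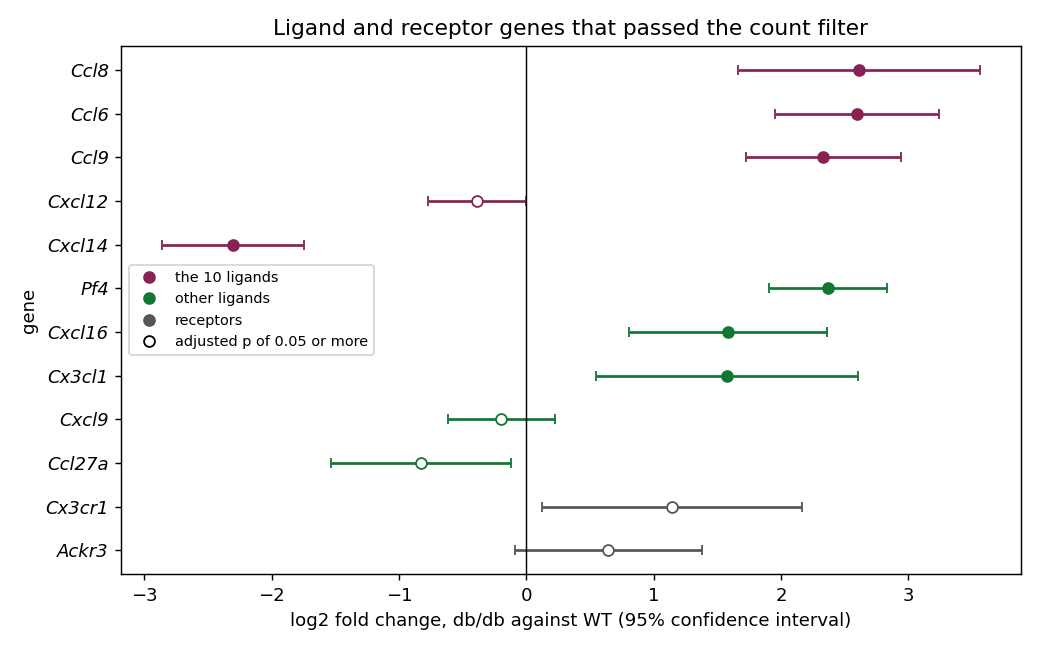
Log2 fold change of db/db against WT with 95% confidence interval (x axis) for the chemokine ligand and receptor genes that passed the count filter (y axis), filled where the edgeR adjusted p was under 0.05. Ccl6, Ccl8, Ccl9, Pf4, Cxcl16 and Cx3cl1 lie to the right, Cxcl14 lies at -2.30, and Cxcl12, Cxcl9, Ccl27a, Cx3cr1 and Ackr3 did not pass.

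Ccl2, the monocyte chemoattractant, and Ccl7, its neighbour 8.258 kb downstream, were nearly absent from the WT libraries. Ccl2 (ENSMUSG00000035385) had 0, 0, 0 and 1 counts in WT and 15, 9, 4 and 5 counts in db/db. The 33 db/db counts against 1 WT count, scaled by library size, gave a ratio of 28.5, with a 95% counting interval from 4.77 to 1160. Ccl7 (ENSMUSG00000035373) had 0, 0, 1 and 1 counts in WT and 9, 6, 5 and 3 counts in db/db, the last of them at the floor. Its ratio was 9.93, with a counting interval from 2.45 to 86.9. For both genes every db/db library was above every WT library. The difference in mean log2 CPM, which a prior count of 2 draws towards 0, was 1.99 for Ccl2 and 1.52 for Ccl7 (exact two-sided permutation p = 0.0286 each, the smallest that 4 against 4 libraries allow, among 5 ligands tested in this way and unadjusted).

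Cxcl1 (ENSMUSG00000029380) had 0, 1, 0 and 1 counts in WT and 12, 21, 0 and 5 counts in db/db. It was seen in 3 of the 4 db/db libraries and was at 0 in db/db replicate 3, so the genotypes overlapped. The ratio of the summed counts was 16.4 (95% counting interval 4.24 to 140.4). The difference in mean log2 CPM of 1.59 did not pass the exact permutation test (p = 0.143). With edgeR over every gene with at least 1 count, a fit in which 19.3% of 16410 genes passed, Ccl2 (adjusted p 0.00184), Ccl7 (adjusted p 0.0419) and Cxcl1 (adjusted p 0.00207) were called. Counting intervals cover counting error only, and these 3 genes rest on at most 21 counts in any library.

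Ccl11 and Cxcl13 were low in both genotypes. Ccl11 (ENSMUSG00000020676) had 5, 6, 10 and 7 counts in WT and 16, 20, 5 and 17 counts in db/db, and 3 of the 4 db/db libraries were above all WT libraries. Its difference of 0.61 in mean log2 CPM did not pass the exact permutation test (p = 0.143). Cxcl13 (ENSMUSG00000023078) had 2, 1, 19 and 6 counts in WT and 4, 6, 2 and 3 counts in db/db. WT replicate 3 held 19 of its 28 WT counts, and the difference in mean log2 CPM was -0.40 with this library and 0.13 without it (exact permutation p = 0.629 with all libraries). Neither Ccl11 (adjusted p 0.332) nor Cxcl13 (adjusted p 0.305) was called by edgeR over every gene with a count.

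The makeup of the ligand pool differed between the genotypes. The 10 ligands together had 341 to 460 counts per WT library and 336 to 992 per db/db library. Cxcl14 held from 56.1% (95% Wilson interval 51.5 to 60.7%) to 70.9% (66.6 to 74.8%) of these counts in WT and from 6.85% (4.60 to 10.1%) to 12.2% (10.3 to 14.4%) in db/db. Ccl6 held from 3.81% (2.24 to 6.41%) to 11.4% (8.73 to 14.7%) in WT and from 37.4% (33.4 to 41.7%) to 47.4% (44.3 to 50.5%) in db/db. The share of Ccl9 was 2.95 to 5.62% in WT and 16.3 to 18.3% in db/db, while that of Cxcl12 overlapped, with 12.8 to 25.8% and 8.47 to 19.6%. Shares are bound to each other, so that the fall of one raises the rest. Per kilobase of exon, the highest mean level in WT was that of Cxcl14, with 58.0 CPM per kb, followed by Ccl6 with 7.99 and Ccl8 with 4.62 CPM per kb. In db/db the order began with Ccl6 at 48.6, Ccl8 at 28.1, Cxcl14 at 11.5 and Ccl9 at 11.4 CPM per kb. Whether reads cover the transcripts evenly is not given in the sources used here, so an order across genes is approximate. Without division by exon length the order differed, with Cxcl12 second in WT at 33.6 CPM, and with Ccl9 at 34.7 CPM, Cxcl12 at 25.8 CPM and Cxcl14 all above Ccl8 at 14.3 CPM in db/db.

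**Figure D3:**
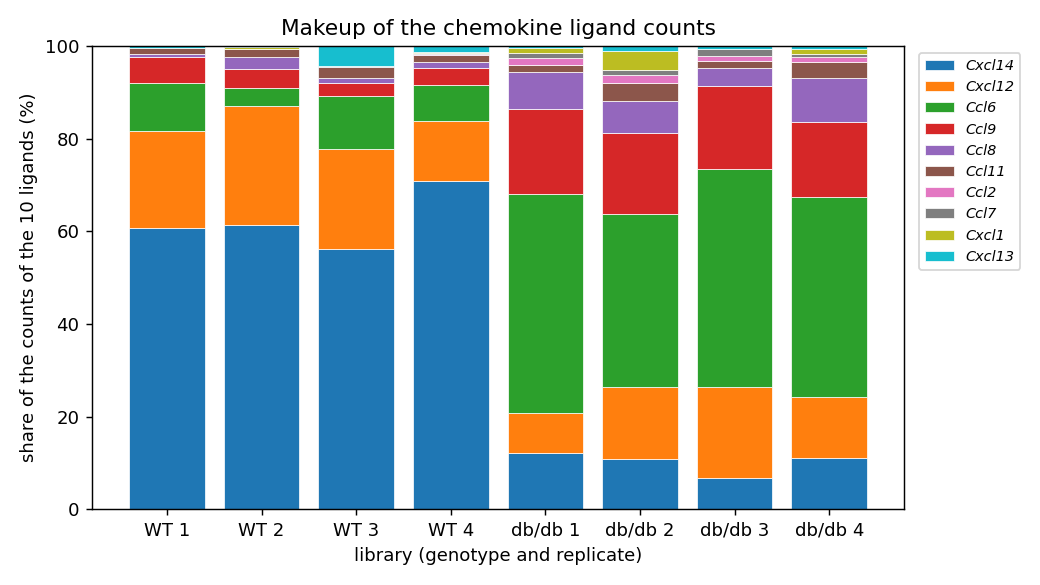
Share of each ligand in the summed counts of the 10 ligands (y axis, percent) in each library (x axis). Cxcl14 takes 56.1 to 70.9% in WT and 6.85 to 12.2% in db/db, and Ccl6 takes 3.81 to 11.4% in WT and 37.4 to 47.4% in db/db.

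The other CC ligand genes in the same stretches of chromosome 11 had few counts and did not pass a test. In the first group Ccl12, which lies between Ccl11 and Ccl8, had 0 to 4 counts in WT and 0 to 12 in db/db, with a log2 fold change of 0.53 over every gene with a count (edgeR adjusted p 0.744). Ccl1 had at most 1 count. In the second group Ccl5, a T cell attractant next to Ccl9, had 2 to 13 and 7 to 20 counts (log2 fold change 0.61, edgeR adjusted p 0.497), Ccl3 had at most 1 count and Ccl4 had 0 counts in WT and 6 in db/db, from 2 of the 4 libraries (edgeR adjusted p 0.143). The differences between these neighbours and the ligands that rose were not tested.

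**Figure D4:**
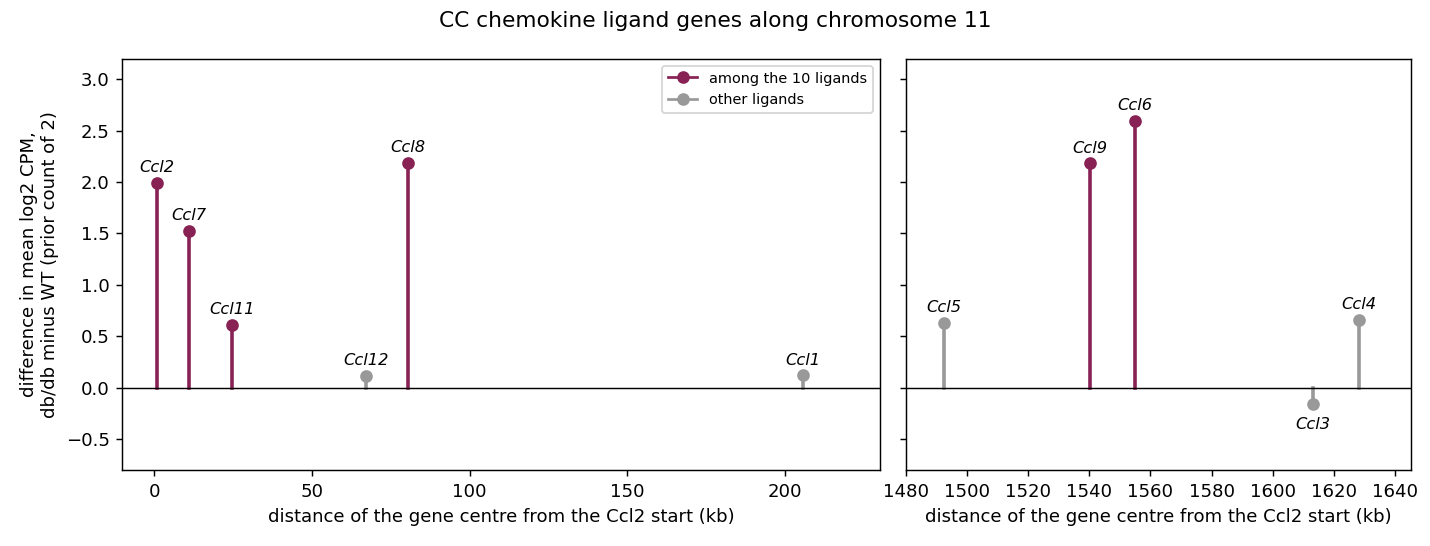
Difference in mean log2 CPM, db/db minus WT with a prior count of 2 (y axis), for the CC ligand genes on chromosome 11 against the distance of the gene centre from the start of Ccl2 (x axis, kb, in 2 separate stretches). Ccl2, Ccl7, Ccl8, Ccl9 and Ccl6 stand at 1.52 or more and Ccl11 at 0.61, and Ccl12, Ccl1, Ccl5, Ccl3 and Ccl4 stand at 0.66 or less.

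Of 28 other chemokine ligand genes in the table, 10 had 0 counts in all libraries, among them Ccl19, Ccl21a and Ccl21b, the ligands of lymph node stroma. Of the 5 that passed the filter, 3 were higher in db/db, where 15.8% of all genes tested were. Among these 3, Cxcl16 (6 to 12 counts in WT) and Cx3cl1 (3 to 13 counts in WT) would not have reached the filter by their WT libraries alone. Pf4, which macrophages and platelets express, stood at 16.2 ± 5.04 CPM in WT and 83.4 ± 19.4 CPM in db/db (SD, n = 4), and rose by a log2 fold change of 2.37 with an SE of 0.22 (edgeR adjusted p 4.61e-07). Cxcl16, a scavenger receptor and ligand of Cxcr6, stood at 4.06 ± 1.16 and 12.2 ± 4.59 CPM (SD, n = 4) and also rose (log2 fold change 1.58, edgeR adjusted p 0.00355). Its exons overlap Zmynd15 on the other strand, so its count is uncertain. Cx3cl1, the membrane-bound ligand fractalkine, stood at 2.48 ± 2.03 and 7.48 ± 2.73 CPM (SD, n = 4). It passed too (log2 fold change 1.58, edgeR adjusted p 0.0221), but it lost the call in 6 of 8 fits without one library (WT replicate 1, 2 or 3, or db/db replicate 2, 3 or 4), in which the adjusted p reached 0.0765. The platelet ligand Ppbp had 1 to 10 counts in WT and 4 to 6 in db/db, so its libraries overlapped while Pf4 rose.

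The interferon-induced ligand Cxcl9, at 19.1 to 24.5 CPM in WT and 16.0 to 24.4 CPM in db/db, did not pass (log2 fold change -0.20, edgeR adjusted p 0.513). Neither did Ccl27a (-0.82, adjusted p 0.0773), whose exons overlap Il11ra1 on the other strand, although it passed as lower over every gene with a count (-0.88, adjusted p 0.0470). Cxcl10, another interferon-induced ligand, had 0 to 8 counts in WT and 9 to 25 in db/db and overlaps Art3 on the other strand. In CPM the genotypes overlapped for Cxcl10, with up to 3.01 in WT and 2.71 in db/db replicate 1. Over every gene with a count it passed (log2 fold change 1.63, edgeR adjusted p 0.0112). In that fit Ccl25, which overlaps Elavl1, was lower (-1.35, adjusted p 0.0442) and the eosinophil attractant Ccl24 did not pass (1.36, adjusted p 0.0502), with 3 to 9 counts in WT and 8 to 30 in db/db.

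Receptor transcripts were scarce. Of 23 receptor genes, only Cx3cr1 and Ackr3 passed the filter and edgeR called 0, as did DESeq2 and limma-voom, with 1 (Cx3cr1) at an unadjusted edgeR p under 0.05. Cx3cr1, the fractalkine receptor of monocytes and macrophages, had 21, 11, 4 and 5 counts in WT and 55, 19, 13 and 22 counts in db/db. Its libraries overlapped, with a log2 fold change of 1.14 (SE 0.48) and an edgeR adjusted p of 0.0900, and an antisense gene, Gm33858, overlaps it. It passed with the replicate number as a block (adjusted p 0.0363) and over every gene with a count (adjusted p 0.0338). Ackr3, a scavenger of Cxcl12, had a log2 fold change of 0.65 (SE 0.35, edgeR adjusted p 0.183).

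Below the filter, Cxcr4, the signalling receptor of Cxcl12, had 1, 0, 2 and 7 counts in WT and 9, 9, 10 and 19 in db/db. Over every gene with a count it passed (log2 fold change 1.96, edgeR adjusted p 0.0233), although WT replicate 4 lay within the range of the db/db libraries in CPM. Ccr2, the receptor of Ccl2 and Ccl7, had 2 to 7 counts in WT and 4 to 21 in db/db (log2 fold change 1.03, adjusted p 0.265). Ackr2, which removes CC ligands, had 1 to 7 and 3 to 20 counts (1.55, adjusted p 0.0705), and Ccrl2 had 1 to 4 and 1 to 18 counts (1.37, adjusted p 0.237). Ccr1, the receptor of Ccl6 and Ccl9, had 0 to 3 counts in WT and 1 to 7 in db/db. Ccr3, Cxcr2 and Cxcr5, the receptors of Ccl11, Cxcl1 and Cxcl13, had at most 3 counts in any library, so a difference was not detectable at this depth.

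Markers of other cell types are given beside the shares of all genes tested, of which 15.8% were higher and 11.9% lower. Of the 12 macrophage markers 11 were tested and 10 rose in db/db, while Cd14 had a log2 fold change of -1.03 and did not pass (edgeR adjusted p 0.0997). Some markers, such as Adgre1 (2 to 19 counts in WT), Cd68 (8 to 17) and Itgam (1 to 12), would not have reached the filter by their WT libraries alone. None of the 12 was at 0, and their summed level was 162.5 to 215.7 CPM in WT and 753.1 to 1328 CPM in db/db, highest in replicate 1. In that library the fibroblast, B cell, T cell and muscle sums were the highest of the db/db libraries too, and so were 6 of the 10 ligands, Ccl2, Ccl6, Ccl7, Ccl8 and Ccl9 as well as Cxcl14, which fell. Of the 8 fibroblast markers all 8 rose (beside the same 15.8%), none was at 0, and the sums were 622.5 to 788.4 CPM in WT and 1264 to 2726 CPM in db/db. Among them, Pdgfra (1 to 22 counts in WT) and Pi16 (7 to 34) would not have reached the filter by their WT libraries alone. Of the 8 endothelial markers 3 fell (beside 11.9% of all genes) and 5 did not pass, none was at 0, and they summed to 395.7 to 454.0 CPM in WT and 288.9 to 339.3 CPM in db/db. Tek (10 to 18 counts in db/db) would not have reached the filter by its db/db libraries alone. The 4 neutrophil markers summed to 0.752 to 12.3 CPM in WT and 21.3 to 26.0 CPM in db/db, with S100a8 higher (log2 fold change 2.72, edgeR adjusted p 0.000201). S100a8 would not have reached the filter by its WT libraries alone, as all 4 markers summed to 0.752 CPM in WT replicate 3. S100a9 did not pass and its libraries overlapped (log2 fold change 1.06, edgeR adjusted p 0.162), and the more specific Ly6g had at most 2 counts. The 4 B cell markers, of which 0 passed the filter, summed to at most 1.13 CPM in WT and 8.42 CPM in db/db, with Cd79a at 0 in all libraries. The 4 T cell markers, of which 0 passed as well, summed to at most 2.53 and 3.31 CPM, with no marker at 0 in all libraries. Of the 4 mesothelial markers, Upk3b and Wt1 were at 0 in all libraries, and the sum of 4.88 to 8.44 CPM in WT and 0.318 to 1.49 CPM in db/db came almost wholly from Lrrn4. The part of these cell types in the ligand differences was not tested.

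Of the 12 muscle markers tested, 11 rose, beside 15.8% of all genes, and their sum was highest in db/db replicate 1, with none at 0. Among them, Myh2 (4 to 97 counts in WT) would not have reached the filter by its WT libraries alone. With the muscle score as a covariate, an alternative added after seeing the data in which 775 genes passed in place of 2568, Ccl6 (log2 fold change 2.10, edgeR adjusted p 0.00304), Ccl8 (2.03, adjusted p 0.0463), Ccl9 (1.81, adjusted p 0.00818) and Cxcl14 (-2.90, adjusted p 1.57e-05) still passed. Of the other ligands Pf4 (1.90, adjusted p 0.000167) still passed, Cxcl16 (adjusted p 0.168) and Cx3cl1 (adjusted p 0.150) lost the call and Ccl27a gained one as lower (-1.72, adjusted p 0.0328). Without db/db replicate 1, the calls of Ccl6, Ccl8, Ccl9 and Cxcl14 were made as well, among 4 of 5 ligands tested, beside 24% of 9385 genes.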

How the data were processed

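RNA was extracted from BAT of 4 WT and 4 db/db mice, and a commercial service made and sequenced single-end mRNA libraries. Per the study's methods, the authors trimmed reads with bbduk, aligned them to mm10 with STAR and counted them per gene with HTSeq-count. The submitters' processing notes also name Trimmomatic, HISAT2 and DESeq2, with no role. The authors deposited raw counts per Ensembl gene, used here. A log2-scaled copy and the sample sheet were not used. Whether molecular identifiers were collapsed or strand was used is not given in the sources used here.

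Of 31053 identifiers, 31011 matched GENCODE M21, and the rest held at most 0.00213% of any library's counts. Groups came from the sample titles. Genes were filtered with filterByExpr (minimum count 10, minimum total 15), scaled by TMM and tested in R 4.3.3 by edgeR's quasi-likelihood F test (version 4.0.16), the model holding genotype alone. P-values were adjusted by Benjamini-Hochberg over all genes tested, with a threshold of 0.05. SEs come from the F statistic. CPM uses the total over filtered genes and the TMM factor, and log2 CPM a prior count of 2. For ligands below the filter, mean log2 CPM was set against all relabellings of the 8 libraries (exact permutation test, two-sided). Alternatives were DESeq2 1.42.0, voom in limma 3.58.1, other scalings and filters, a replicate block and leaving out each library. A muscle-score covariate, and edgeR over every gene with a count for the ligands below the filter, were added after seeing the data. The fit was tested on simulated data. The ligands and gene lists were chosen with earlier results of these data known. All 10 ligands were named, and other ligands and receptors when called or with at least 10 counts in 1 library. Of the receptors, 1 that met this rule is not reported here. Receptors and ligands outside that rule (Ccl1, Ccl3, Ccl4, Ccl19, Ccl21a, Ccl21b, Ccr1, Ccr3, Cxcr2, Cxcr5) were named for their position, as partners or as examples at 0 after their values were seen. Cxcl11 is not analysed here. That libraries are separate animals follows from the study's description. Replicates of a genotype differed by more than counting error (chi-square per degree of freedom at least 4.34).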

Additional observations from a re-analysis of the deposited data

Results flagged for a closer look

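Of 56 sets of 4 libraries of one genotype, taken from the 10 ligands and the other named genes, 5 had 1 library whose gap to its nearest neighbour exceeded Dixon's 95% critical value, which chance gives in about 2.80 sets. Ccl6 in db/db replicate 1 was at 141.4 CPM, against 62.0 to 75.5 CPM in the other db/db libraries. Ccl9 in the same library was at 54.8 CPM, against 26.6 to 29.0 CPM. Cxcl12 in WT replicate 4 was at 25.0 CPM, against 35.7 to 37.1 CPM in the other WT libraries. Cx3cl1 in WT replicate 4 was at 5.52 CPM, against 1.27 to 1.62 CPM, which rests on 13 counts against 3 to 4. Ccl2 in WT replicate 4 was at 0.424 CPM, which is 1 count, where the other WT libraries had 0.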

How the results depend on the processing

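For the 5 ligands that passed the filter, changing the test, the scaling, the block or the filter left direction and side of the threshold as they were, and so did another prior count or scaling for the 5 below it. Of these, edgeR over every gene with a count, chosen after seeing the data, called 3 where the exact test passed 2, since Cxcl1 went from p = 0.143 in the exact permutation test to an adjusted p of 0.00207. The count of ligands called stayed at 4 in each fit without one library and in all others but the filters. When no gene with a count was filtered out, 7 of 10 ligands, 6 of 18 other ligands and 3 of 20 receptors were called, beside 19.3% of 16410 genes. Requiring at least 10 counts in every library left out Ccl8 and gave 3 of 4 ligands and 1 of 3 other ligands, beside 27.5% of all genes. With the replicate number as a block, 4 of 5 ligands, 3 of 5 other ligands and 1 of 2 receptors were called, beside 27.6% of all genes. Same-numbered libraries are different animals, their deviations correlated at -0.00111 on average, and 3 of the 8 libraries correlated best with their own number. With the muscle score as covariate, chosen after seeing the data, 775 genes were called in place of 2568. Fits without one library called 2236 to 2483 genes, from 23.1 to 26.1% of those tested. Of the other ligands they called 2 to 5 (5 of 7 tested without db/db replicate 1). Of the receptors they called 0 to 2 (2 of 3 tested without WT replicate 1). The cause was not tested. Leaving out one library changed neither direction nor side of the threshold for the 5 ligands that passed the filter. For the 5 below it, values were set against the SD of the db/db libraries in log2 CPM. Only 2 moved by more than this SD, both of Cxcl13, to -0.78 without WT replicate 2 and to 0.13 without WT replicate 3. Both libraries left out were WT, where the SD of Cxcl13 was wider (3.08 CPM, against 0.441 CPM in db/db). With 3 against 4 libraries the smallest exact p is 0.0571, so the ligands below the filter were given no test there. The 5 ligands below the filter rest on at most 21 counts per library, which limits their precision.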
